A study of Homo sapiens with 4 samples.

Results

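The replication histone genes of the short arm of chromosome 6 were examined as 52 open chromatin regions (peaks) out of 190348 in a count table from the assay for transposase-accessible chromatin (ATAC-seq). A peak was a member if it started between positions 25700000 and 28000000 of chromosome 6 and lay no more than 1 kb from an end of a coding gene named H1-, H2AC, H2BC, H3C or H4C. Positions are those of the deposited table, and genes were placed with RefSeq annotation of GRCh38.p14. The membership rule therefore rested on position and used no measured value, but the group was chosen with earlier results of these data known. The cells were LM2, a line derived from the breast cancer line MDA-MB-231 and described as metastasising more to lung. The control group, 2 libraries, carried a nontargeting guide, and the other group, also 2 libraries and called sg1 here, carried a deletion of CECR2 labelled as deletion 1. All 4 cultures were grown with puromycin, and each library took 50000 cells into the transposase reaction. No source used here says whether the cells were 1 clone or a pool, or whether replicates came from separate cultures, so p-values measure only the spread between these libraries. CECR2 is a bromodomain protein found with an ISWI-type chromatin remodelling enzyme.

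Replication-dependent histone genes supply the histones that package new DNA, and they are transcribed mainly in S phase. They lie in clusters, are short, lack introns and give mRNAs that end in a stem-loop in place of a poly(A) tail. The largest cluster, on chromosome 6, lies in nuclear bodies organised by NPAT and CASP8AP2 (also called FLASH). Many H2A and H2B genes are arranged head to head and share 1 promoter region. Known promoter elements are a TATA box, CCAAT boxes, an octamer in H2B promoters that is bound by POU2F1 (OCT1), and the H1 box of linker histone promoters.

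The interval held 55 such genes, and 32 of them had a member peak: 2 of 6 H1 genes, 8 of 12 H2A genes, 10 of 15 H2B genes, 5 of 10 H3 genes and 7 of 12 H4 genes. The other 23 had none in the table used here: H1-1, H1-3, H1-5, H1-6, H2AC1, H2AC7, H2AC8, H2AC16, H2BC1, H2BC7, H2BC8, H2BC9, H2BC10, H3C4, H3C6, H3C7, H3C8, H3C11, H4C4, H4C6, H4C7, H4C9 and H4C13. Members overlapped a histone gene in 27 cases and lay only in the flank in 25, and H4C5 had a flank peak alone. Many overlapping peaks also covered the annotated start and promoter, so they do not measure the gene body alone. Of the 52 peaks, 18 were within reach of 2 histone genes and 7 overlapped both genes of an H2A and H2B pair, so these peaks cannot be assigned to 1 gene. None was a gene-end peak of any other protein-coding gene. Histone genes of a class are near-identical copies in their coding parts. The sources used here do not state how reads that match several copies were treated, so counts over coding parts are uncertain between copies.

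Promoter sequences are printed for 6 genes to show what lies under the tested peaks: the pair with the largest fall (H2BC11 and H2AC11), 1 gene each of the H1, H3 and H4 classes whose peak fell, and H3C1 and H4C2, whose peaks did not pass the test. They come from RefSeq (GRCh38.p14), run 5′ to 3′ on the gene's strand and end at the base before the annotated start. H2BC11 is shown over 250 bases, which extend toward H2AC11, and the others over 150 bases. Each printed stretch lies inside a member peak, apart from the first few bases of H1-4. Capitals mark the TATA box (letters TATAAA), the CCAAT box, the octamer (letters ATTTGCAT) or the H1 box (letters AAACACA) on either strand, and overlapping matches run together.
H2BC11 promoter, chr6:27132796-27133045, minus strand: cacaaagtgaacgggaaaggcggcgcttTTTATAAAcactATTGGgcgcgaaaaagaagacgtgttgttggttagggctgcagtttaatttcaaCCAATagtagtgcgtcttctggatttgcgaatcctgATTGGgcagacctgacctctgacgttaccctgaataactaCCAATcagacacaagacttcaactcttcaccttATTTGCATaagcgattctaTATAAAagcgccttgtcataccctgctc
H1-4 promoter, chr6:26156179-26156328, plus strand: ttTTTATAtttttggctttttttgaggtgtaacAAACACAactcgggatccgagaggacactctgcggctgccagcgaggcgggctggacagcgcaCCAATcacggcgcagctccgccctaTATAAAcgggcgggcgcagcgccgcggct
H3C2 promoter, chr6:26032100-26032249, minus strand: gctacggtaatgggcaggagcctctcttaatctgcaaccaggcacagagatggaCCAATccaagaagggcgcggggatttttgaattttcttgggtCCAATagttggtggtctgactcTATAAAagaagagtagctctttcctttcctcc
H4C11 promoter, chr6:27823942-27824091, plus strand: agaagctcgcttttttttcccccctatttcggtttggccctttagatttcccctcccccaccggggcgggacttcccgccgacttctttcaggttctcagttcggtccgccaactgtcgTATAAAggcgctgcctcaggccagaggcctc
H3C1 promoter, chr6:26020301-26020450, plus strand: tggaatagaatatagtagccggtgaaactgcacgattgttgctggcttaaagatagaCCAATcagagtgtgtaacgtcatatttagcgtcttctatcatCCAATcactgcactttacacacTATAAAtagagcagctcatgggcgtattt
H4C2 promoter, chr6:26027284-26027433, minus strand: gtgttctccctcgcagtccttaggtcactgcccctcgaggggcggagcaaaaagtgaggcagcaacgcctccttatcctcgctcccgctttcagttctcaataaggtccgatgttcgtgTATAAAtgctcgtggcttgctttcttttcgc

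Of the 55 genes, 50 had an entry in the promoter table, and H4C1, H4C3, H2AC12, H3C11 and H3C12 had none. Each entry spans 250 bases before to 50 bases after the start, and both strands were searched. Among the 28 genes with a member peak and an entry, TATAAA was found in 78.6%, CCAAT in 82.1%, ATTTGCAT in 42.9% and AAACACA in 7.14%. Over all 15842 protein-coding promoters in the table the shares were 9.63%, 36.4%, 1.70% and 4.24%. The elements followed the histone class. AAACACA was in 6 of 6 H1 promoters, H1-4 as printed among them, and in none of the other classes. ATTTGCAT was in 12 of 15 H2B and 9 of 11 H2A promoters, in 1 of 8 H3 promoters and in no H1 or H4 promoter. The H3 match was at H3C4, which has the same annotated start as H2AC7, so the same window was searched for both. Windows of head-to-head H2A and H2B genes can also overlap, so 1 match can count for both genes. CCAAT was in every H1, H2A, H2B and H3 promoter searched, but in 3 of 10 H4 promoters. The printed H4C11 and H4C2 stretches hold only the TATA box. In 19 of the genes with a member peak a TATAAA on the gene's strand lay before the start, at a median position of −31 (range −189 to −27). The 22 genes with no member peak held TATAAA in 11, CCAAT in 20, ATTTGCAT in 10 and AAACACA in 4 promoters. These matches are descriptions of letters in a window, and no match says only that the letters are not there.

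Depth differed between the groups. Total counts were 25610655 and 18950793 in control against 58341297 and 52150389 in sg1. Peaks in the first 250 kb of chromosome 1 took 17.9% to 18% of the control counts and 25.4% of the counts in each sg1 library, and were left out. Depth and this share moved with the groups, and their part in the results was not tested. Levels are given as CPM, counts per 1000000 counts of a library after TMM scaling. At the listed gene ends of CECR2 the higher peak held 3.60 and 3.39 CPM in control and 3.35 and 4.18 in sg1. Its log2 fold change was 0.10 (adjusted p 0.770, edgeR), and openness there does not check a coding deletion. Of the cell line's markers VIM, CD44, CAV1 and AXL all had a gene-end peak, with VIM at 77.4 to 85.8 CPM. CAV1 was at 45.6 to 52.8, CD44 at 29.2 to 31.7 and AXL at 20 to 26 CPM. ESR1, PECAM1 and CDH5 had no tested gene-end peak, and PTPRC was at 0.330 to 1.04 CPM. FOXA1 (8.54 to 11.6 CPM), SPI1 (8.54 to 9.74 CPM) and KDR (9.26 to 13.6 CPM) had peaks that did not pass the test. CD3E had a peak of 26.8 to 34.0 CPM, which fell in sg1 (−0.26, adjusted p 0.0145, edgeR). It did not pass in DESeq2 (adjusted p 0.0920), nor without control replicate 1 (0.203), sg1 replicate 1 (0.123) or sg1 replicate 2 (0.150). GATA3 had one of 4.44 to 8.72 CPM, which rose (0.76, adjusted p 0.000662). The part of such cells in the histone results was not tested.

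Peaks overlapping a histone gene mostly ranked high among the gene-end peaks of the genome. Peaks are compared per kb of their length. Per kb, the 27 overlapping peaks had a median percentile of 95.4 among all gene-end peaks of the genome, and the 25 flank peaks one of 70.6. That reference also holds minor flank peaks of other genes. Of its 23885 tested peaks, 13953 had a mean under 10 CPM, so these are not ranks among main peaks alone. The H2BC11 and H2AC11 pair was highest in control at 74.2 CPM per kb, followed by H3C2 at 65.1, the H1-4 promoter peak at 56.9, and H2BC4 and H2AC6 at 55.5. H4C3 and H4C8 were the highest H4 peaks, both at 49.5 CPM per kb, and H1-2 stood close to them. Taking each gene's tallest peak, the low end was formed by H2BC6 at 7.63, the H4C5 flank peak at 8.32, H3C12 at 18.5 and the H2AC15 and H2BC15 pair at 25.6 CPM per kb. The 78.1 kb between the H4C5 peak and the first H4C8 peak (26206544 to 26284601) held 10 such genes and 1 peak, which was not a member.

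Accessibility at the peaks overlapping histone genes was lower after CECR2 deletion, by a modest amount. Summed over the 27 overlapping peaks, the control libraries held 1110 and 1125 CPM and the sg1 libraries 946 and 961. The means were 1117 ± 10.9 (SD, n = 2) and 954 ± 11.1, a change of −14.7%. Both sg1 sums lay below both control sums, and the gap was many times the spread within a group. The 25 flank peaks together held 128 and 141 CPM in control and 133 and 135 in sg1. Their sums overlapped between the groups, with a change of −0.4% in the mean. In bulk libraries, fewer cells with an open site and less opening in each cell cannot be told apart.

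All 52 member peaks passed the filter on low counts and were tested in the edgeR fit over 184717 peaks, with Benjamini-Hochberg adjustment over all of them and a threshold of 0.05. Accessibility fell at 16 of 52 (30.8%) and rose at 1 (1.92%). Over all tested peaks 16.8% fell and 11.5% rose, over all gene-end peaks 7.28% fell and 21.2% rose, and over gene-end peaks of at least 20 CPM 10.8% fell and 29.5% rose. All 16 falls were at the 27 overlapping peaks, where none rose (1 rose at an unadjusted p under 0.05, and 0 in DESeq2). Of the 25 flank peaks, 0 fell by edgeR, by DESeq2 or at an unadjusted p under 0.05. The median log2 fold change was −0.21 for overlapping peaks and −0.00 for flank peaks, against 0.02 for all tested peaks and 0.17 for all gene-end peaks. Both sg1 libraries lay below both controls at 22 of 52 member peaks (42.3%) and above them at 7 (13.5%), against 31.9% and 31.8% of all tested peaks and 17.2% and 48.1% of gene-end peaks. Flank peaks were low, at 0.716 to 25.7 CPM in control, so a change of the size seen on the genes was not detectable at most of them.

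The count of falls depended on which libraries and tool were used. DESeq2 gave 10 falls and 0 rises among the 52, beside 9.67% and 4.59% of all tested peaks. The count was 5 without sg1 replicate 1 and 8 without sg1 replicate 2, and 10 in limma-voom and with library size as the only scaling. With TMM factors taken from gene-end peaks alone, 21 member peaks fell and 0 rose, and the median of all tested peaks moved from 0.02 to −0.14. The median of the overlapping peaks stayed negative in each alternative fit run (−0.37 to −0.16), while that of the flank peaks changed sign (−0.16 to 0.06).

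**Figure D1:**
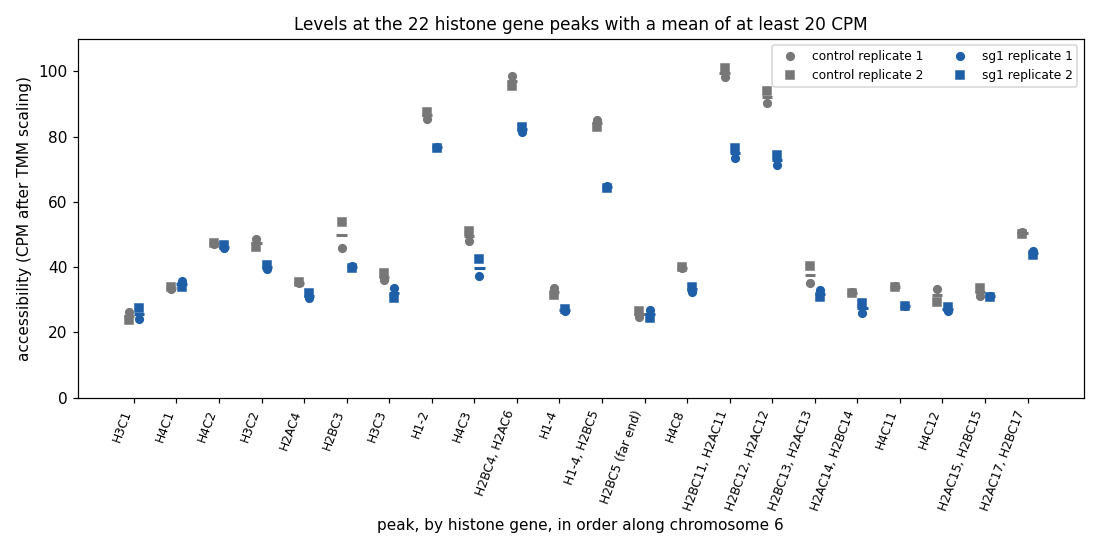
Accessibility in CPM after TMM scaling (vertical axis, from 0) at the 22 histone gene peaks with a mean of at least 20 CPM, in order along chromosome 6. Grey marks are the 2 control libraries, blue marks the 2 sg1 libraries, and dashes their means; the sg1 marks lie below the control marks at 18 of the 22 peaks, and the H3C1, H4C1, H2BC5 far-end and H2AC15 and H2BC15 peaks overlap between groups.

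In 5 peaks, all of H2A, H2B or H1 genes, the fall passed in every alternative fit run. H2BC11 and H2AC11, which encode core histones H2B and H2A from 1 shared promoter, had the largest fall, at chr6:27132199-27133540. Control libraries held 98.3 and 101 CPM and sg1 libraries 73.6 and 76.6. The log2 fold change was −0.41 (SE 0.06, adjusted p 7.55e-07, edgeR), a change of −24.6%. Every sg1 value was below every control value by over 20 CPM.

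The peak at chr6:26157030-26158614 covers the start of the core histone gene H2BC5. It also reaches the end of the linker histone gene H1-4, whose product binds the nucleosome's entry and exit DNA. The peak held 85.2 and 83.0 CPM in control and 64.9 and 64.3 in sg1 (−0.38, SE 0.06, adjusted p 4.51e-06, edgeR). The gap between groups was far wider than that between replicates. H2BC12 and H2AC12, another H2B and H2A pair, held 90.3 and 94.1 CPM against 71.3 and 74.4 at chr6:27145954-27147651 (−0.34, SE 0.06, adjusted p 2.16e-05). H2BC4 and H2AC6, at chr6:26122878-26124627, held 98.5 and 95.6 against 81.5 and 83.0 CPM (−0.24, SE 0.05, adjusted p 0.00106). In both pairs the groups were well apart and the replicates close.

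H2BC3, a lone H2B gene peak at chr6:26043084-26044292, held 46.0 and 53.9 CPM in control and 40.4 and 39.6 in sg1 (−0.31, SE 0.07, adjusted p 0.00112, edgeR). The control libraries differed more here than at the larger peaks, yet both stood above sg1.

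Peaks overlapping a linker histone gene fell at 3 of 3 sites, but 1 of these is the H1-4 and H2BC5 peak. That peak covers the annotated start of H2BC5 and only the end of H1-4, so it does not measure the H1-4 promoter. Besides the H1-4 and H2BC5 peak, the peak over the H1-4 promoter and start, chr6:26156184-26156754, held 33.5 and 31.4 CPM in control and 26.6 and 27.3 in sg1 (−0.27, adjusted p 0.00785, edgeR). It covers the H1 box of the printed sequence. In DESeq2 its adjusted p was 0.0569. H1-2, at chr6:26054904-26056634, held 85.5 and 87.5 against 76.8 and 76.6 CPM. Its fall was the smallest of those called (−0.17, adjusted p 0.0190), although the groups were separate.

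Among overlapping peaks of H2A genes 6 of 9 fell, and among those of H2B genes 8 of 12, with shared peaks counted for both. Of the 7 pair peaks 6 fell, with a median of −0.24, and the pair that did not pass was H2AC15 and H2BC15 (31.1 and 33.7 against 31.2 and 30.9 CPM, −0.06, adjusted p 0.632). With gene-end scaling that pair passed too (−0.22, adjusted p 0.0304). The other called pairs lie in the third subcluster. H2BC13 and H2AC13 held 35.2 and 40.2 against 33.0 and 30.7 CPM (−0.24, adjusted p 0.0195). H2AC14 and H2BC14 held 32.3 and 32.0 against 25.8 and 29.0 CPM (−0.23, adjusted p 0.0286). H2AC17 and H2BC17 held 50.8 and 50.1 against 44.9 and 43.7 CPM (−0.19, adjusted p 0.0320). The groups did not overlap at any of these 3 pairs, but their adjusted p in DESeq2 was 0.104, 0.150 and 0.120. H2AC4 stood at 35.1 and 35.4 against 30.4 and 32.1 CPM and missed the threshold (−0.17, adjusted p 0.0825).

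Of the core histone H3 gene peaks 2 of 5 fell. H3C2, at chr6:26031631-26032359, held 48.6 and 46.3 CPM in control and 39.5 and 40.5 in sg1 (−0.25, SE 0.07, adjusted p 0.00560, edgeR). H3C3 held 36.0 and 38.1 against 33.6 and 30.4 CPM (−0.21, adjusted p 0.0376), with an adjusted p of 0.165 in DESeq2. H3C10, with 17.5 and 17.6 against 14.1 and 15.2 CPM, had a similar difference of −0.26 and an adjusted p of 0.0521. H3C1 and H3C12 had differences of 0.04 and 0.09. At H3C1 the 4 values were 26.1 and 23.7 in control and 24.0 and 27.5 CPM in sg1, with a 95% interval of −8.5% to 16.2%.

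Of the core histone H4 gene peaks 4 of 6 fell. H4C3 held 47.9 and 51.0 against 37.2 and 42.4 CPM (−0.31, SE 0.07, adjusted p 0.00121, edgeR). H4C11 held 34.1 and 34.0 against 28.0 and 28.0 CPM (−0.28, SE 0.08, adjusted p 0.00452), with near-equal replicates. H4C8 held 39.8 and 39.9 against 32.5 and 33.9 CPM (−0.26, adjusted p 0.00532). H4C12, named to complete the 16 falls after its values were seen, held 33.4 and 29.2 against 26.5 and 27.7 CPM (−0.21, adjusted p 0.0445), with an adjusted p of 0.201 in DESeq2. H4C1 and H4C2 differed from these. H4C1 held 33.4 and 34.0 against 35.6 and 33.8 CPM (0.04, 95% interval −6.9% to 13.8%). H4C2 held 47.2 and 47.4 against 45.9 and 46.7 CPM (−0.03, 95% interval −10.6% to 7.1%). These intervals do not reach the −17.9% of H4C11 or the −16.8% of H4C8. The intervals of H4C11 (−25.9% to −9.0%) and H4C8 (−24.5% to −8.2%) overlap that of H4C2 but not that of H4C1. That of H4C12 (−22.8% to −3.8%) overlaps both. That of H4C3 (−27.0% to −11.1%) overlaps neither, but it ends so close to the −10.6% of H4C2 that a slightly wider interval would reach it. The difference between H4 genes itself was not tested.

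By position, 9 of 15 overlapping peaks fell in the first subcluster (26.02 to 26.29 Mb), 2 of 3 in the second and 5 of 9 in the third (27.81 to 27.89 Mb). The medians were −0.21, −0.34 and −0.21. In DESeq2 the counts were 7, 2 and 1. Within the first subcluster the 3 leading gene peaks, at H3C1, H4C1 and H4C2, had differences within 0.04 of 0, and the falls began with H3C2. Far from the promoter, the H2BC5 peak at chr6:26171757-26172539 held 24.8 and 26.5 against 26.8 and 24.4 CPM (−0.00). The 5 overlapping peaks under 10 CPM did not pass. H2BC5 at 26158823 (3.31 and 3.78 against 3.32 and 3.65 CPM), H2BC12 at 27145744 (3.99 and 4.70 against 3.77 and 4.44 CPM) and H3C12 had differences of −0.02, −0.07 and 0.09. H2BC6 held 5.88 and 7.37 against 8.68 and 7.51 CPM (0.30, adjusted p 0.151), and a minor H2AC17 and H2BC17 peak held 2.97 and 2.74 against 4.23 and 3.80 CPM (0.49, adjusted p 0.0918). The 1 rise was at a flank peak between H3C2 and H2AC4, chr6:26032829-26033007, with 1.80 and 2.15 against 3.12 and 3.14 CPM (0.68, SE 0.25, adjusted p 0.0403). It is a short, low peak, and its adjusted p was 0.206 in DESeq2. The largest differences downward outside the called peaks were also in low flank peaks, at H2BC6 (0.389 and 1.04 against 0.452 and 0.330 CPM, −0.80, adjusted p 0.260) and at H2AC14 and H2BC14 (−0.53, adjusted p 0.176). The H2BC6 value rests on control replicate 2, being 0.01 without it. At the edge of the 1 kb rule, the farthest member lay 943 bp from H4C2 (5.56 and 6.45 CPM on average in control and sg1). The nearest peak outside lay at 1125 bp (3.51 and 3.18 CPM).

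**Figure D2:**
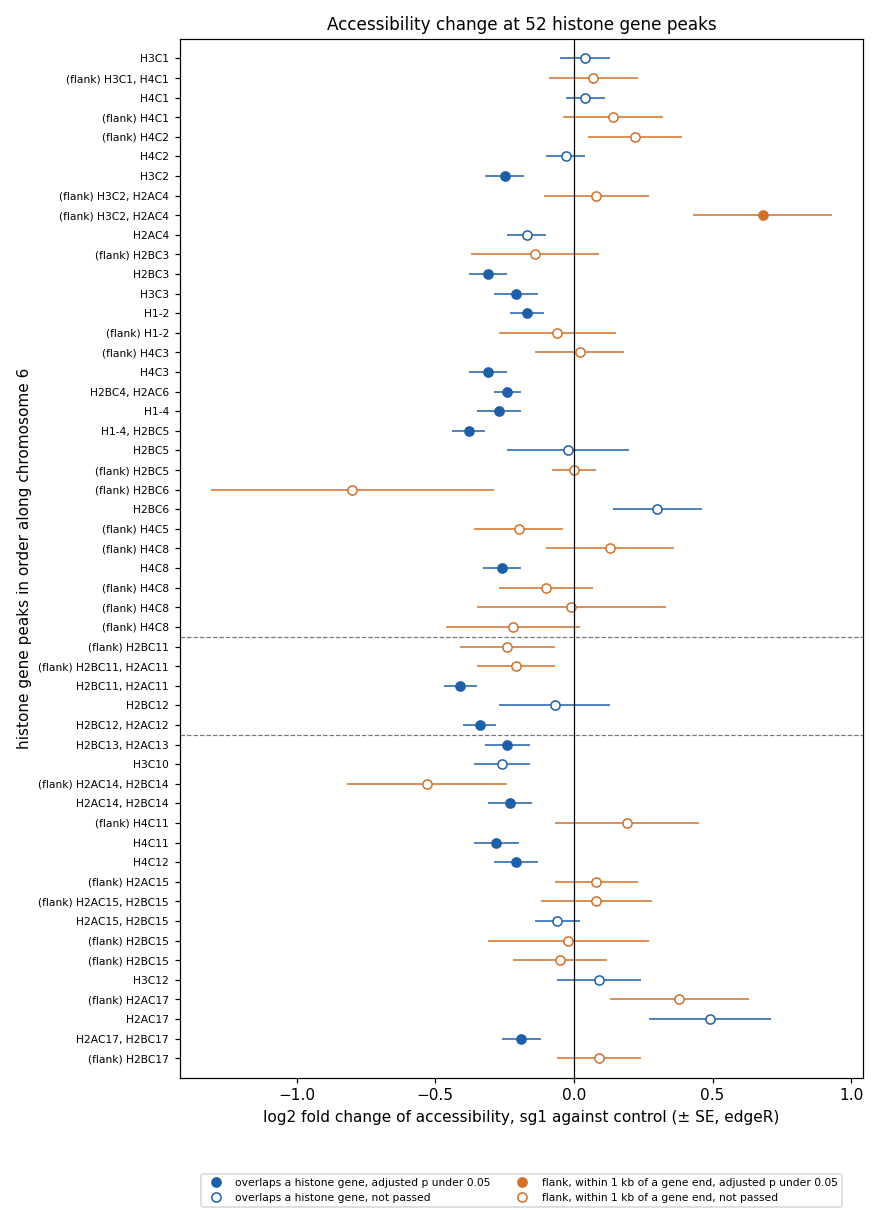
Log2 fold change of accessibility, sg1 against control (horizontal axis, bars are ± 1 SE from edgeR), for each of the 52 histone gene peaks in order along chromosome 6, with dashed lines between the 3 subclusters. Filled marks passed an adjusted p of 0.05; the 16 filled blue marks, on the genes, lie between −0.41 and −0.17, and flank peaks (orange) scatter around 0 with 1 filled mark at 0.68.

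The falls were modest in size. Among peaks of at least 20 CPM called lower, the median log2 fold change was −0.26 for the histone peaks, −0.29 for gene-end peaks and −0.40 for all tested peaks. Without a limit on level the medians were −0.59 for gene-end peaks and −1.05 for all tested peaks, most of which are low, where only large changes can pass. None of the histone peaks passed a 2-fold change, as 16377 of the called lower peaks did. The called histone falls thus ranged from −24.6% to −11.3%.

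Level moved with the change. Over the 27 overlapping peaks the Spearman correlation of log2 fold change with mean level was −0.61, over the 25 flank peaks 0.04 and over all gene-end peaks −0.15; peaks share libraries and scaling, so these are descriptions. All gene-end peaks at 80 CPM or more, 42 in number, had a median of −0.23 with 66.7% lower, and the 4 histone peaks among them had a median of −0.29 with 4 lower. At 40 to 80 CPM gene-end peaks had a median of −0.01 with 21% lower, and the 6 histone peaks had −0.28 with 5 lower. At 20 to 40 CPM gene-end peaks had a median of 0.12 with 7.69% lower, and the 12 histone peaks had −0.21 with 7 lower. Histone peaks thus had lower medians than gene-end peaks of like level in these 3 ranges. At 80 CPM or more, however, the histone median lay inside the gene-end interquartile range of −0.31 to −0.11, and the 4 histone peaks are among the 42. At 40 to 80 and 20 to 40 CPM the histone medians lay below the gene-end lower quartiles of −0.14 and −0.02. The part of level in the falls was not tested further.

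**Figure D3:**
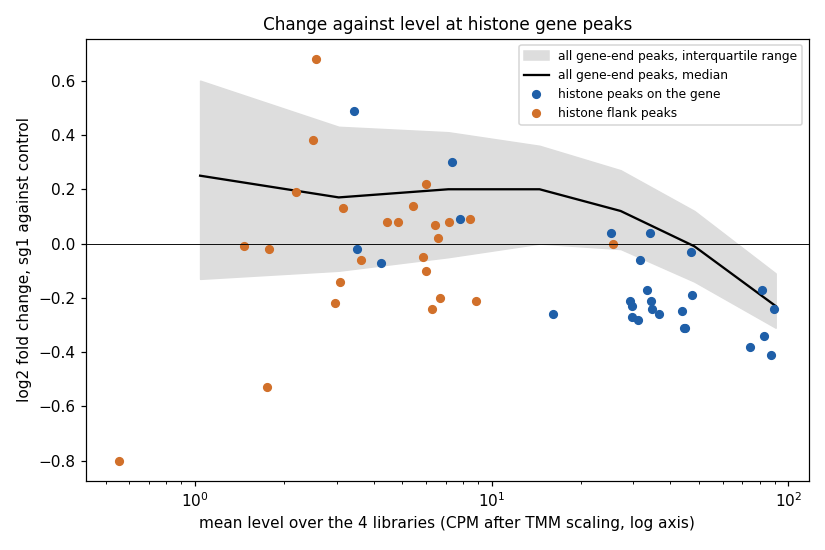
Log2 fold change, sg1 against control, against mean level (CPM after TMM scaling, log axis) for histone peaks on the gene (blue) and in the flank (orange), over the median (line) and interquartile range (grey band) of all gene-end peaks. The gene-end median drops from 0.12 at 20 to 40 CPM to −0.23 at 80 CPM or more, and most blue points from 20 CPM upward lie under the line.

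Neighbouring peaks of the interval fell as well. Of 193 tested peaks between the same bounds that were not histone members, 43 fell (22.3%) and 3 rose, with a median of −0.19. At 20 CPM or more, 16 of 24 neighbours fell (66.7%, median −0.28), beside 16 of 22 histone peaks (72.7%, median −0.23). Neighbours at the ends of other genes numbered 26, of which 4 fell (median −0.12). Outside the interval, all tested peaks of chromosome 6 had a median of −0.10, with 20.2% lower, and its gene-end peaks a median of 0.04, with 9.72% lower. Falls were thus seen at histone peaks and at other tall peaks of this interval. The part of the interval in the histone result was not tested.

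Replication histone genes outside chromosome 6 gave other values. Of 14 listed genes 12 had a gene-end peak, in 7 distinct peaks because neighbouring genes share them, and H2AC25 and H2BC26 had none tested. None fell in edgeR (0 at an unadjusted p under 0.05, 0 in DESeq2), and H4C16 on chromosome 12 rose (30.4 and 30.2 against 38.4 and 36.8 CPM, 0.31, adjusted p 0.00167), but not with gene-end scaling (0.15, adjusted p 0.128). The 6 chromosome 1 peaks had differences of −0.07 to 0.03. The tallest, over H3C14 and H2AC18, held 88.3 and 97.7 CPM in control and 94.4 and 95 in sg1. In CPM this is the range of the tallest chromosome 6 pairs that fell, but this peak is long, at 2814 bp. Per kb it stood at 33 CPM in control. Among chromosome 6 pairs that fell, H2BC11 and H2AC11 stood at 74.2 and H2AC14 and H2BC14 at 30.3 CPM per kb. The median of the 7 peaks was −0.01. With factors from gene-end peaks alone it was −0.17, and 4 of the 7 fell, beside a median of −0.37 on chromosome 6. The difference between the chromosomes was not itself tested.

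Genes that act on histone gene expression were read at their tallest gene-end peak. For scale, over 12756 genes with such a peak the median was 0.15, with 30.2% higher and 8.95% lower. Regulators of histone transcription rose at 2 of 8 and fell at 0 in edgeR (1 lower at an unadjusted p under 0.05, 0 in DESeq2). NPAT, the coactivator of histone genes, shares its peak with ATM and held 79.1 and 81.3 CPM in control and 72.8 and 73.0 in sg1. It did not pass (−0.14, adjusted p 0.0722), though the groups were separate, and it passed with gene-end scaling (−0.30, adjusted p 0.000106). CASP8AP2 held 23.6 and 22.6 against 22.5 and 23.0 CPM (−0.03). POU2F1, the octamer factor, rose (24.3 and 21.5 against 30.2 and 30.3 CPM, 0.40, adjusted p 0.000478). CCNE1, the cyclin E that activates NPAT through CDK2, rose (12.2 and 10.2 against 14.1 and 16.4 CPM, 0.43, adjusted p 0.00579), but not with gene-end scaling (adjusted p 0.0813) or without sg1 replicate 2 (adjusted p 0.146).

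Processing factors of histone mRNA rose at 8 of 18 and fell at 1, CSTF2 (−0.38, adjusted p 0.00101, named after its values were seen). SLBP, which binds the stem-loop at the end of histone mRNAs, rose from 23.5 and 20.4 to 31.6 and 32.6 CPM (0.54, SE 0.08, adjusted p 8.11e-06, edgeR), with no overlap. ZNF473, a protein of the histone pre-mRNA cleavage complex that shares its peak with VRK3, rose by 0.43 (adjusted p 0.000509). The SRRT peak, shared with UFSP1 and ACHE, had 26.5 and 17.0 CPM in control and 31.6 and 32.9 in sg1 (0.54, adjusted p 0.000186). Its controls differed widely, and its adjusted p was 0.230 in DESeq2. The count of rises was 5 in DESeq2, 5 without sg1 replicate 1 and 4 with gene-end scaling, and with that scaling SLBP still passed (0.38, adjusted p 0.000636).

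Histone chaperones, which carry histones to chromatin, rose at 6 of 18 and fell at 0 in edgeR (0 at an unadjusted p under 0.05, 0 in DESeq2). With gene-end scaling 4 rose and 3 fell. The leading rises were at RBBP4, a histone-binding subunit of the CAF-1 assembly factor (0.50, adjusted p 1.65e-05), at UBN1 of the HIRA complex (0.45, adjusted p 0.000196), and at CHAF1A, the large CAF-1 subunit (0.41, adjusted p 0.00109). RBBP4 and UBN1 share their peaks with ZBTB8OS and GLYR1. Replacement histone genes, which are expressed outside S phase, rose at 3 of 10 and fell at 1. H2AZ2 (0.30, adjusted p 0.000606) and H3-3A (0.29, adjusted p 0.00370) rose, and CENPA, the centromeric H3, fell from 36.0 and 30.1 to 25.8 and 27.2 CPM (−0.33, adjusted p 0.00281). With gene-end scaling none of the 10 rose, and CENPA did not pass without control replicate 1 (adjusted p 0.131) or sg1 replicate 1 (adjusted p 0.0760). These counts of rises stand beside the 30.2% that rose over all genes read this way.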

How the data were processed

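Raw counts per peak of 4 ATAC-seq libraries were used, and each of 4 count columns matched 1 sample by name. Per the file headers, the deposited counts were made by the authors with featureCounts 1.6.0 from cut-site alignments, in which each end of a fragment can count once. The submitters' processing notes list Trimmomatic 0.39, MACS2 2.2.4, Bowtie2 and DESeq2 1.32 among the tools, without their roles. The genome build and the handling of duplicates are not stated there or in the headers. The GRCh38.p14 gene table was checked by position: 73.3% of genes had a peak at an end, against 30.8% and 31.1% after shifting gene positions by 100 kb down or up.

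The 109 peaks in the first 250 kb of chromosome 1 were left out, leaving 15561701 to 43519018 counts per library. The main test was the quasi-likelihood F test of edgeR 4.0.16 with group as the only term, TMM factors and the filterByExpr filter, run in R 4.3.3 on 184717 peaks. Percent changes come from this fit. The 95% intervals use its SE with a normal approximation, which makes them somewhat narrow for so few libraries. The script was tested on simulated data: of 50 peaks each changed 1.25-, 1.5-, 2- and 4-fold among 184717, 2%, 14%, 54% and 92% were recovered. There were 5 false calls. Every simulated peak had the same dispersion, and changed peaks were drawn from all levels, so these rates do not describe the tall histone peaks. DESeq2 1.42.0 and limma 3.58.1 served in alternatives, which also varied scaling, filters, the gene-end window, a replicate block and the libraries used.

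Peaks named were up to 15 called members with the smallest p, the extremes of level per histone class, the 3 largest rises and falls, shared peaks, and up to 3 called genes per related list, with NPAT, SLBP and CASP8AP2. The members and lists were chosen with earlier results of these data known.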

Additional observations from a re-analysis of the deposited data

How the results depend on the processing

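Of 52 member peaks, 16 fell in the main analysis, and the count was 10 with library size only, 10 in DESeq2 and 10 in limma-voom with cyclic loess; all of these were at the 27 overlapping peaks. Leaving out 1 library gave 5 to 14 falls, and 0 to 2 rises in place of 1; the lowest count came without sg1 replicate 1, and 8 without sg1 replicate 2. The lone remaining sg1 or control library is then assumed to vary like the other group. The 1 rise became 0 with TMM factors from gene-end peaks only, in DESeq2 and among overlapping peaks only. The member median of −0.09 became −0.25 with gene-end TMM factors, −0.17 with a 500 bp window and −0.21 for overlapping peaks only, and the overlapping median of −0.21 became −0.37 with gene-end factors. Leaving out 1 library moved these medians over −0.16 to −0.03 and −0.22 to −0.19. Over all tested peaks, 31041 fell and 21269 rose; DESeq2 gave 17866 and 8475, gene-end factors 43316 and 12446, and leaving out 1 library 18888 to 29467 falls and 11147 to 20243 rises. The cause of these shifts was not tested, apart from the fewer samples or peaks that some alternatives use. Over 30 named member peaks and their alternatives, 344 of 389 values kept their side of the threshold, 42 lost the call and 3 gained it. The sign changed in 12, all at peaks with no call, and in 0 of the 208 values of called peaks. Same-numbered libraries did not deviate together (correlation −0.00525 over 95287 peaks), and a replicate block gave 16 falls and 1 rise among members, with no named member call changed. Depth limits the low flank peaks most, where only changes well above those seen on the genes could pass.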

Other observations

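The interval also holds a large group of tRNA genes, which RNA polymerase III transcribes. Of 47 tested peaks there that overlapped a tRNA gene and were not histone members, 19 fell (edgeR, adjusted p under 0.05) and 0 rose (1 at an unadjusted p under 0.05, 0 in DESeq2), with a median of −0.29. Elsewhere in the genome 58 of 187 such peaks fell (31.0%) and 13 rose (6.95%), with a median of −0.12. The difference between these 2 sets was not tested. The 3 tRNA peaks of the interval with the smallest p, chosen after their values were seen, fell by more than any histone peak that passed the test. The TRK-CTT2-4 peak, at a lysine tRNA gene, held 19.7 and 20.4 CPM in control and 8.86 and 9.10 in sg1 (−1.16, adjusted p 2.88e-10, edgeR). The TRR-TCG2-1 peak, at an arginine tRNA gene, held 26.2 and 26.5 against 13 and 14 CPM (−0.97, adjusted p 6.53e-10). The peak over TRR-ACG1-2 and TRV-CAC1-6 held 94.7 and 95.2 against 61.2 and 63.7 CPM (−0.60, adjusted p 4.56e-10), a control level like that of the tallest histone pairs. Peaks of the interval with no tRNA gene had a median of −0.14, with 24 of 146 lower and 3 higher.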
